A study of Mus musculus with 7 samples.

Results

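The 31 genes described here encode enzymes and regulators of cholesterol and fatty acid synthesis. They were chosen by gene symbol from the 40743 genes of the deposited expression table, and all 31 were found there. The table came from RNA sequencing of sorted retinal microglia (rMG), the resident macrophages of the retina, from mice labelled Irf8 KO. The 7 libraries fell into 2 groups, 3 from mice without laser treatment (unlasered) and 4 from mice whose retina had been injured by laser to induce choroidal neovascularisation (lasered), the growth of new choroidal vessels into the space below the retina. Mice of both groups were labelled Irf8-/- Cx3cr1GFP/+ on a C57BL/6J background, so 1 allele of the chemokine receptor gene Cx3cr1 was replaced by the green fluorescent reporter in every animal. Cells were pooled from 3 to 4 mice per library and sorted as CD45low CD11b+ Cx3cr1GFP/+ Ly6C- Ly6G-, with a mean of 10000 cells per sample. For the lasered mice the central 70% of the retina was used, whereas the cut was not described for unlasered mice. Control libraries with intact Irf8 were not analysed here, so every comparison is between lasered and unlasered rMG labelled with the same genotype.

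Cells make cholesterol from acetyl-CoA through mevalonate, isoprenoid units, squalene and lanosterol, and they make fatty acids from the same acetyl-CoA through malonyl-CoA. The transcription factors encoded by Srebf1 and Srebf2 switch on both routes. When sterols in the endoplasmic reticulum are low, Scap carries these factors to the Golgi for cleavage, and when sterols are high, the Insig proteins hold Scap back. Liver X receptors, which sense oxysterols, raise genes of sterol export, a role well known in macrophages, and also Srebf1.

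The targeted gene was read in every library labelled Irf8 KO. Irf8 was at 530, 489 and 507 CPM (reads of a gene as a share of its library, brought to an equal sum for every library) in unlasered libraries 1, 2 and 3 and at 463, 465, 475 and 582 CPM in lasered libraries 1, 2, 3 and 4, and its reads were listed jointly with an overlapping gene. Values per gene do not show whether the deleted part was read, so the genotype labels could not be checked by this gene. Totals were 20427558 to 36022954 reads in unlasered and 37133297 to 45919042 reads in lasered libraries, so that 3 reads corresponded to 0.0653 to 0.147 CPM. This floor covers counting error only. The 12 microglia markers summed to 24490 to 30990 CPM in all 7 libraries. Of these, 0 were called by limma or edgeR, with 3 lower and 1 higher by limma at an unadjusted p under 0.05. P2ry12, a purinergic receptor gene of resting microglia, was called lower by DESeq2 (adjusted p = 0.0312) and was at 569, 412 and 498 CPM in unlasered libraries and at 258, 244, 332 and 404 CPM in lasered libraries. The 15 rod photoreceptor markers together held 2251, 20190 and 5780 CPM in unlasered libraries 1, 2 and 3 but 321 to 1020 CPM in the lasered ones, and 14 of 15 were called lower after laser. Of 12 retinal neuron markers 8 were tested, and limma called 1 lower, whereas edgeR called 2 and DESeq2 4. By limma 7 of the 8 were lower in sign, 5 of them at an unadjusted p under 0.05. The 12 markers summed to 62.6 to 831 CPM in unlasered against 21.7 to 58.3 CPM in lasered libraries. Mueller glia markers summed to 208 to 800 CPM, and 0 of 7 tested were called by limma. By limma 5 of the 7 were lower and 2 higher in sign, with 2 lower and 1 higher at an unadjusted p under 0.05. Those 2 lower genes were Slc1a3 (log2 fold change -2.14, SE 0.81) and Car14 (-0.74, SE 0.27), whereas DESeq2 called Vim higher (adjusted p = 0.0323). Pigment epithelium markers summed to 14.2 to 20.1 CPM, with 7 of 10 below the filter and 0 called by limma, edgeR or DESeq2, and 1 higher by limma at an unadjusted p under 0.05. The sums over 10 monocyte and neutrophil markers were 84.4, 25.6 and 83.3 CPM without laser and, in lasered libraries 1 to 4, 156, 209, 37.3 and 13.5 CPM, so that lasered libraries 1 and 2 stood above the rest. Ly6c2, Ly6g, S100a9 and Vcan were below the filter, and limma called 0 of the 6 tested. By sign 4 of the 6 were lower and 2 higher, with 1 higher at an unadjusted p under 0.05. Ccr2, a chemokine receptor gene of monocytes, was at 5.63, 6.37 and 14.2 CPM in unlasered libraries and at 81.5, 128, 19.7 and 7.57 CPM in lasered libraries (limma, log2 fold change 2.03, SE 0.83, adjusted p = 0.186), and DESeq2 called it higher (adjusted p = 0.0374). Of the marker sums in lasered libraries 1 and 2, 81.5 and 128 CPM were reads of Ccr2 alone. The part that rod RNA or the RNA of Ccr2-expressing cells plays in the results below was not tested. These markers were named after their values were seen.

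After laser injury, 5 genes of the cholesterol route fell, and 0 of the 5 fatty acid genes tested were called in either direction by limma, edgeR or DESeq2. The 5 genes were Idi1, Sqle, Msmo1, Hsd17b7 and Sc5d, with lasered levels between 0.35 and 0.60 of the unlasered level. Of the 31 genes, 29 passed the filter of at least 1 CPM in at least 3 libraries, and Fdps and Scd1 did not. Of the 29, 5 were called lower (17.2%) and 0 higher at an adjusted p under 0.05 (limma on log2(CPM + 1), two-sided, Benjamini-Hochberg over 17496 genes). Over all genes tested, 6.93% were called, 3.07% lower and 3.86% higher. At an unadjusted p under 0.05, 7 of the 29 were lower and 1 was higher. The median log2 fold change, lasered minus unlasered, was -0.13 over the 29 genes and -0.01 over all genes tested. In bulk RNA, fewer cells expressing a gene and less of its RNA per cell cannot be told apart.

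Msmo1 (ENSMUSG00000031604, chromosome 8 of GRCm38, 64718139 to 64733792) encodes the sterol methyl oxidase that takes part in removing methyl groups from lanosterol-derived sterols. It was at 109, 91.4 and 87.5 CPM in unlasered libraries 1, 2 and 3 and at 51.8, 56.2, 55.6 and 52.7 CPM in lasered libraries 1 to 4. The groups were far apart, and the 4 lasered libraries lay within 5 CPM of each other. Its mean fell from 95.9 ± 11.4 (SD, n = 3) to 54.1 ± 2.16 CPM (SD, n = 4), a log2 fold change of -0.81 (SE 0.13, adjusted p = 0.0113).

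Hsd17b7 (chromosome 1, 169949535 to 169969241), the keto-reductase of the same demethylation complex, was at 13.9, 10.8 and 13.4 CPM in unlasered libraries and at 3.90, 6.10, 7.01 and 3.88 CPM in lasered libraries. Every lasered library lay below every unlasered library, and lasered libraries 1 and 4 were the lowest. Its mean fell from 12.7 ± 1.66 (SD, n = 3) to 5.22 ± 1.59 CPM (SD, n = 4), a log2 fold change of -1.16 (SE 0.23, adjusted p = 0.0242). The remaining enzyme of this complex in the list, Nsdhl, was not called (log2 fold change -0.13, SE 0.21, adjusted p = 0.762), with overlapping ranges of 14.4 to 23.4 CPM and 12.9 to 19.4 CPM.

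Sc5d (chromosome 9, 42251595 to 42264256), the desaturase that introduces a double bond late in the route, was at 46.0, 38.6 and 37.8 CPM in unlasered libraries and at 21.9, 28.8, 28.1 and 19.3 CPM in lasered libraries. The groups did not overlap. The mean fell from 40.8 ± 4.53 (SD, n = 3) to 24.5 ± 4.67 CPM (SD, n = 4), a log2 fold change of -0.72 (SE 0.18, adjusted p = 0.0456).

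Sqle (chromosome 15, 59315077 to 59331192) encodes squalene epoxidase, which catalyses the first oxygenation on the way to sterols. It was at 15.4, 11.4 and 29.7 CPM in unlasered libraries and at 6.73, 9.22, 5.92 and 4.34 CPM in lasered libraries. The fall was the largest of the 29 genes on the log2 scale (-1.32, SE 0.33, adjusted p = 0.0461), and the unlasered group was also the most uneven of the 5, with library 3 well above the others. Without unlasered library 3 the log2 fold change was -0.96, smaller than that of Hsd17b7 (-1.12), and the call was lost (adjusted p = 0.0744).

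Idi1 (chromosome 13, 8885501 to 8892451) encodes the isomerase that interconverts the basic isoprenoid units. It was at 18.7, 15.7 and 19.0 CPM in unlasered libraries and at 7.21, 10.4, 10.3 and 10.5 CPM in lasered libraries. The groups did not overlap, and lasered library 1 lay below the other lasered libraries, which were nearly level. The mean fell from 17.8 ± 1.82 (SD, n = 3) to 9.62 ± 1.61 CPM (SD, n = 4), a log2 fold change of -0.84 (SE 0.19, adjusted p = 0.0332).

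**Figure D1:**
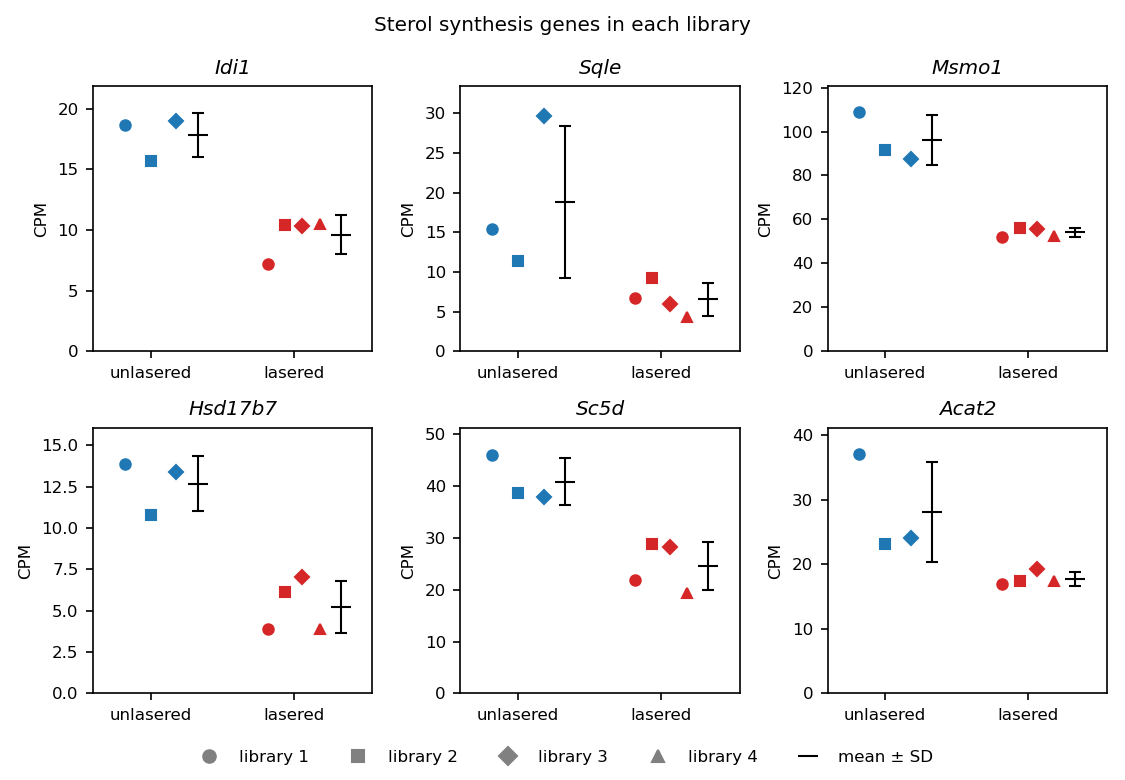
CPM in each library (vertical axes, from 0) of the 5 called genes and of Acat2. Symbols are single libraries (3 unlasered, 4 lasered) and bars are mean ± SD. In all 6 panels every lasered library lies below every unlasered library, and unlasered library 3 stands high for Sqle.

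Of the 29 genes tested, 6 were lower in every lasered library than in every unlasered library (20.7%), against 10.7% of all genes tested, and 0 were higher without overlap, against 10.4%. The sixth gene was Acat2, the cytosolic thiolase that joins acetyl-CoA units at the start of the route. It was at 37.0, 23.2 and 24.0 CPM in unlasered libraries and at 16.9, 17.4, 19.3 and 17.4 CPM in lasered libraries. Its log2 fold change was -0.61 (SE 0.19) and did not pass the threshold (adjusted p = 0.092), whereas DESeq2 called it lower (-0.66, adjusted p = 0.0293). The longest match to Acat2 in another gene, Acat3, is 97.7% identical over 1477 bases and was not called (adjusted p = 0.595), so reads may have been divided between them. Tcp1 is 98.7% identical to Acat2 over a shorter stretch of 445 bases.

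The calls did not all rest equally on single libraries or settings. Msmo1 was called in 15 of 16 alternative fits, Hsd17b7 in 11, Idi1 in 8, Sqle in 7 and Sc5d in 5. The direction of these 5 genes was the same in all 16. Their groups did not overlap, so leaving out a library could not have turned it. Without unlasered library 1, lasered library 1 or lasered library 2, Msmo1 was the 1 gene called. Without lasered library 3 or lasered library 4, 2 genes were called, Msmo1 and Hsd17b7. Without unlasered library 3, Msmo1 and Hsd17b7 were called lower and Acaca higher. Unlasered library 2 held the most rod RNA. Of the 3 unlasered libraries it was the lowest for Idi1, Sqle and Hsd17b7 but not for Msmo1 and Sc5d, and a part of rod RNA was not tested. Without unlasered library 2, 4 genes were called, with log2 fold changes of -0.92 for Idi1, -1.61 for Sqle, -0.84 for Msmo1 and -1.27 for Hsd17b7. In that fit Sc5d lost its call (-0.76, adjusted p = 0.0799).

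Sequence upstream of the start site was compared because genes of this programme are known to share binding sites for the SREBP factors and for their partners NF-Y and Sp1. RefSeq start sites (GRCm38.p6) were given for 25 of the 31 genes, and Fdps, Fdft1, Sqle, Stard4, Scd1 and Scd2 had no entry. In the 250 bases before the start, on either strand, the CCAAT box (CCAAT) was found for 20 of 25 genes (80.0%), against 37.5% of all 27025 genes with an entry. The GC box (GGGCGG) was found for 20 of 25 (80.0%), against 35.4%. The E-box (CACGTG), the same on both strands, was found for 5 of 25 (20.0%), against 6.86%. The sterol regulatory element in the form TCACNCCAC was found for 1 of 25 (4.00%), Hmgcs1, against 1.22%. None of the 4 motifs contains another. A match describes the letters only, and other forms of these sites were not searched. The comparison set was not limited to genes expressed in these libraries and was not matched for base composition. All 4 called genes with an entry held a CCAAT box and a GC box, as did many of the genes that were not called. The stretches are shown 5′ to 3′ on the strand of the gene with motif matches in capitals, where ATTGG and CCGCCC are the same boxes read on the opposite strand. For Sc5d and Hsd17b7 the stretch runs up to the start or the first annotated exon (chr9:42264301-42264550 and chr1:169969242-169969455, both minus strand). For Msmo1 and Idi1, 214 and 105 of the 250 bases lie in an annotated exon. Only the 30 bases richest in motif letters are given for these genes (chr8:64733629-64733658, minus strand, and chr13:8885536-8885565, plus strand). Both stretches lie inside the exon of the annotated gene, before the RefSeq start but not before the annotated start. Hmgcs1 is shown as the gene with the sterol regulatory element that was not called (chr13:119690101-119690350, plus strand).
Sc5d: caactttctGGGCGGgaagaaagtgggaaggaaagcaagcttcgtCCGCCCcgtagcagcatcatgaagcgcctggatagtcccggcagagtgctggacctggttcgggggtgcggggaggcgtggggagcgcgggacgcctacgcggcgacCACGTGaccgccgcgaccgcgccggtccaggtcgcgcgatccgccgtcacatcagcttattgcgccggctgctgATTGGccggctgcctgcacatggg
Hsd17b7: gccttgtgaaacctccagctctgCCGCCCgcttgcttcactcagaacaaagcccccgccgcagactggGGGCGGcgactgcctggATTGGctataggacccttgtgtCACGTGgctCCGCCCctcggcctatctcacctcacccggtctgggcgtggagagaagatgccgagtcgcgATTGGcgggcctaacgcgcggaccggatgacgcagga
Msmo1: gaaggcaGGGCGGgagtgGGGCGGaCCAAT
Idi1: cCCGCCCtagccttgcctccagctgATTGG
Hmgcs1: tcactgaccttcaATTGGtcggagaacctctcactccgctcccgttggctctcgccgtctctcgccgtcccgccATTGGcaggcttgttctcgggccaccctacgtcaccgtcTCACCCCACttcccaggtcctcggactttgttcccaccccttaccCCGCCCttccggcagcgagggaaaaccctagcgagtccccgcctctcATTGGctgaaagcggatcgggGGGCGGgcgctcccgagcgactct
Counted from the RefSeq start, the CCAAT box shown for Msmo1 begins at base -55 and its GC boxes at -62 and -73, and for Idi1 the CCAAT box begins at -45 and the GC box at -69.

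**Figure D2:**
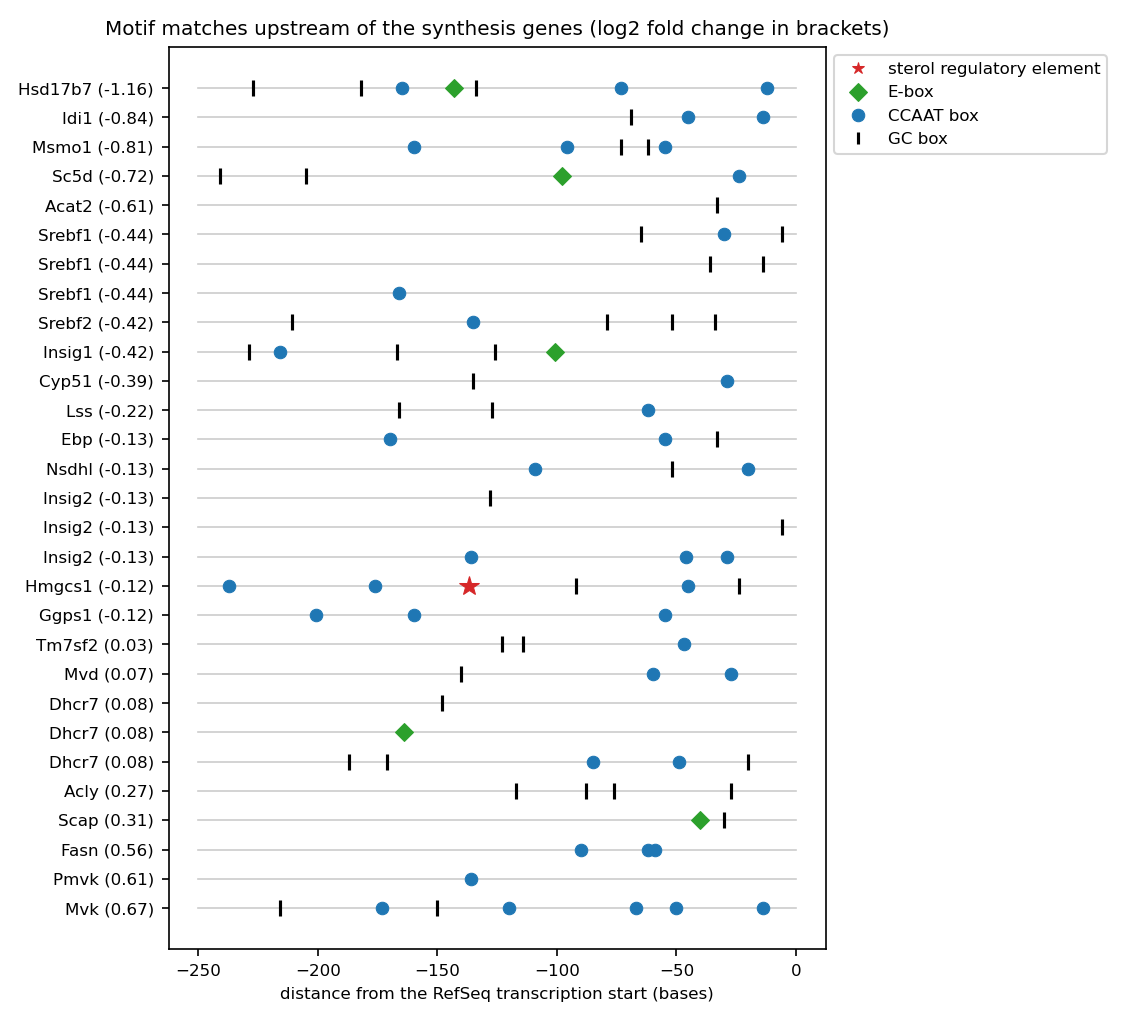
Positions of the 4 motifs (symbols) along the 250 bases before the RefSeq start (horizontal axis, bases) for the 29 promoters of 23 genes with a match, ordered from the lowest to the highest log2 fold change, which stands in brackets. CCAAT and GC boxes are spread over the whole order, from Hsd17b7 (-1.16) to Mvk (0.67), and the single sterol regulatory element belongs to Hmgcs1 (-0.12).

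Among the regulators, 0 of the 5 genes were called by limma, edgeR or DESeq2. Srebf2, the factor that mainly drives cholesterol genes, was at 59.6, 46.5 and 76.9 CPM in unlasered libraries and at 48.3, 51.5, 38.6 and 40.5 CPM in lasered libraries (log2 fold change -0.42, SE 0.19, adjusted p = 0.232). Srebf1, which mainly drives fatty acid genes, was at 33.3, 50.7 and 52.8 CPM in unlasered libraries and at 33.3, 36.3, 29.0 and 32.3 CPM in lasered libraries (-0.44, SE 0.18, adjusted p = 0.195). For both factors the ranges overlapped, for Srebf1 through unlasered library 1. Insig1, itself a target of the SREBP factors, was level at 12.8, 12.7 and 12.9 CPM in unlasered libraries and spread over 16.9, 8.37, 10.3 and 5.01 CPM in lasered libraries (-0.42, SE 0.32, adjusted p = 0.492). Insig2 was at 60.7, 56.5 and 55.6 CPM and at 55.1, 42.4, 59.7 and 54.3 CPM (-0.13, SE 0.15, adjusted p = 0.657). Scap was at 15.2, 36.3 and 41.1 CPM and at 43.7, 35.1, 26.9 and 38.6 CPM, so that unlasered library 1 stood far below the others (0.31, SE 0.32, adjusted p = 0.619), and without that library the log2 fold change was -0.12. The reads of Srebf1 include some listed jointly with microRNA genes inside it.

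In the mevalonate and isoprenoid steps, 7 of 8 genes were tested, 1 was called lower (Idi1) and 0 higher, and the log2 fold changes ran from -0.84 to 0.67. Mvk and Pmvk, the kinases that phosphorylate mevalonate, had positive log2 fold changes of 0.67 (SE 0.30, adjusted p = 0.224) and 0.62 (SE 0.23, adjusted p = 0.147). Neither passed the threshold, and lasered library 4 lay within the unlasered range for both. The decarboxylase gene Mvd (0.07), the synthase gene Hmgcs1 (-0.12) and Ggps1 (-0.12), which makes geranylgeranyl diphosphate for protein prenylation, had standard errors of 0.21, 0.19 and 0.13 and were not called. In the squalene and lanosterol steps, 1 of 3 genes was called lower (Sqle), and Fdft1, squalene synthase (-0.33, SE 0.22), and Lss, lanosterol synthase (-0.22, SE 0.37), were not. In the steps from lanosterol to cholesterol, 3 of 8 were called lower. Of the other 5, Cyp51, the lanosterol demethylase, had the lowest log2 fold change (-0.39, SE 0.19, adjusted p = 0.264), followed by Ebp (-0.13, SE 0.13) and Nsdhl (-0.13), while Tm7sf2 and Dhcr7, a pair of sterol reductases, were at 0.03 (SE 0.26) and 0.08 (SE 0.21). Stard4, which carries cholesterol between membranes, spread from 1.19 to 8.52 CPM in lasered libraries and was at -0.04 (SE 0.46).

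**Figure D3:**
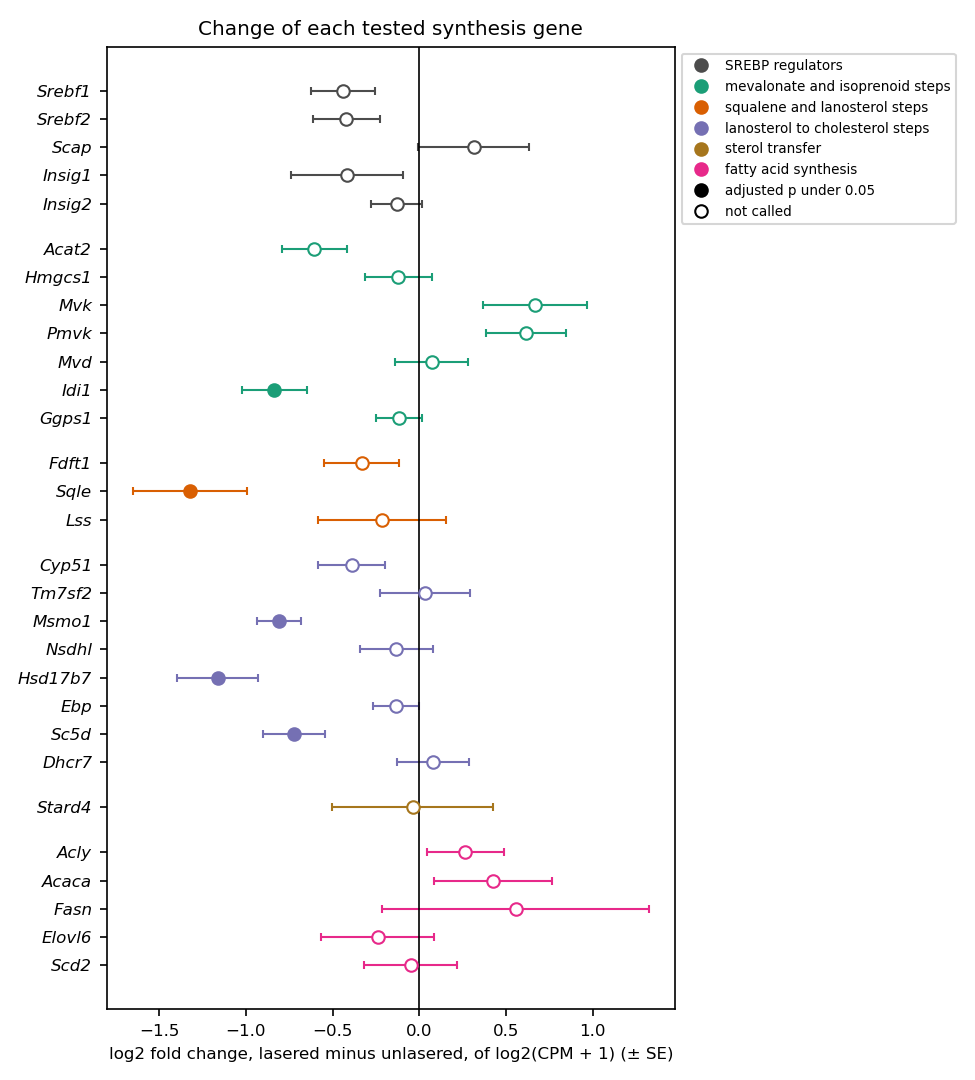
Log2 fold change, lasered minus unlasered, of log2(CPM + 1) (horizontal axis, points with SE) for the 29 genes tested, grouped and coloured by role. Filled points passed an adjusted p under 0.05, and all 5 of them, from Sqle (-1.32) to Sc5d (-0.72), lie in the cholesterol route and to the left of 0.

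None of the 5 fatty acid synthesis genes tested was called, and their median log2 fold change was 0.27. Acly, which makes cytosolic acetyl-CoA from citrate, was the most abundant of the 31 genes per kilobase of exon, at 71.6 CPM per kilobase before and 84.3 CPM per kilobase after laser, and its log2 fold change was 0.27 (SE 0.22, adjusted p = 0.532). Acaca, the carboxylase that makes malonyl-CoA, was at 73.6, 59.1 and 186 CPM in unlasered libraries and at 154, 123, 127 and 104 CPM in lasered libraries. Unlasered library 3 lay above all other libraries and unlasered libraries 1 and 2 below them (0.43, SE 0.34, adjusted p = 0.515). Without unlasered library 3 Acaca was called higher after laser, with a log2 fold change of 0.92 (adjusted p = 0.0258). Fasn, the fatty acid synthase, was at 1.27, 9.55 and 13.7 CPM in unlasered libraries and at 18.1, 14.6, 12.8 and 1.83 CPM in lasered libraries. Its 2 lowest libraries, unlasered 1 and lasered 4, were in different groups, and its log2 fold change of 0.56 had an SE of 0.77 (adjusted p = 0.726). It was -0.26 without unlasered library 1. Scd2, a stearoyl-CoA desaturase, was at 56.8, 41.8 and 101 CPM in unlasered libraries and at 61.7, 49.9, 71.4 and 58.8 CPM in lasered libraries (-0.05, SE 0.27, adjusted p = 0.936). Its paralogue Scd1 was at 0.636, 0.380 and 4.72 CPM and at 0.725, 0.267, 0.544 and 0.727 CPM and was not tested, since 1 library alone exceeded 1 CPM. Per kilobase of exon, Scd2 was at 12.2 and Scd1 at 0.391 CPM in unlasered libraries. Elovl6, an elongase, ranged from 1.13 to 3.97 CPM over both groups (-0.24, SE 0.33). The reads of Acly, Scd2 and Elovl6 include some listed jointly with another gene, so their levels are less certain.

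Unlasered library 3 had the highest level of Acaca, Scd1, Scd2, Sqle and Srebf2 among the 7 libraries. The same held for Srebf1, Hmgcs1, Fdps, Fdft1, Lss, Cyp51 and the called gene Idi1. For the 5 fatty acid genes tested, the median deviation from each gene's mean was 0.72 on the log2 scale in unlasered library 3 and -0.54 and -0.26 in unlasered libraries 1 and 2, against -0.12 to 0.23 in lasered libraries. For the 18 sterol enzymes tested, the median deviations were 0.31, 0.09 and 0.22 in unlasered libraries 1, 2 and 3 and -0.27, -0.08, -0.10 and -0.14 in lasered libraries 1 to 4. The highest level was in unlasered library 1 for 6 of these enzymes, in library 2 for 2 and in library 3 for 6. Summed over all 19 sterol enzymes, the reads were 595, 519 and 560 CPM in unlasered libraries and 410, 461, 460 and 427 CPM in lasered libraries, and the groups did not overlap. These sums include the 5 called genes, so they are not separate evidence on the rest of the route. Of the 18 enzymes tested, 13 were lower and 5 higher in sign, beside 9034 lower and 8462 higher of all 17496 genes tested. The 13 include the 5 called genes and Acat2. The sum over the 6 fatty acid genes, 415 to 823 CPM without and 537 to 752 CPM with laser, did overlap.

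**Figure D4:**
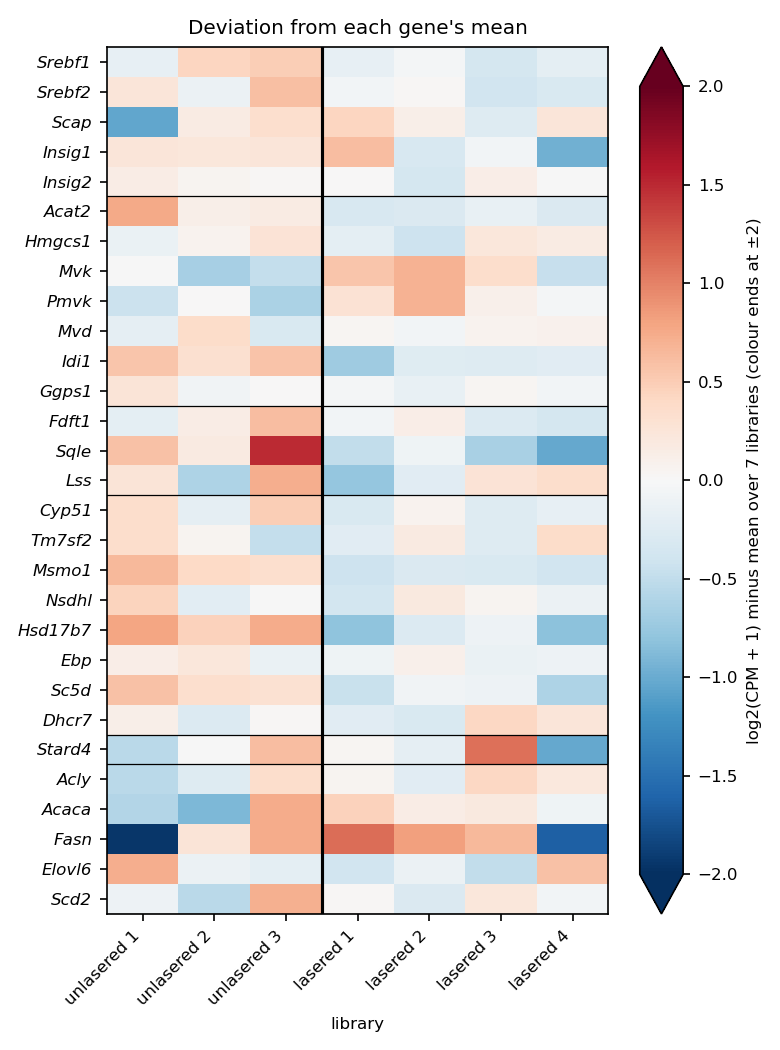
Log2(CPM + 1) of each of the 29 genes tested (rows, divided by role) minus its mean over the 7 libraries (columns, unlasered left of the line), in red above and in blue below the mean. Idi1, Sqle, Msmo1, Hsd17b7 and Sc5d are red in the 3 unlasered and blue in the 4 lasered libraries, whereas Fasn is lowest in unlasered library 1 and lasered library 4.

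Within groups, the genes were compared by the correlation of their deviations from the group means over the 7 libraries, as a description. The mean over all pairs of the 8 genes from lanosterol to cholesterol was 0.31 (28 pairs), and over the 7 mevalonate and isoprenoid genes it was -0.05 (21 pairs). Over all 18 sterol enzymes it was 0.11 (153 pairs) and over all 29 genes 0.03 (406 pairs), beside 0.01 over all pairs of genes tested. All pairs share the same libraries and depths. The mean for the 5 regulators was 0.05 and for the 5 fatty acid genes 0.13.

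Idi1 and Fdps have near-identical pseudogene copies elsewhere in the genome, and the reads of such genes can be divided between copies. Gm13502 is identical to Idi1 over 684 bases, and it was at 6.85, 6.66 and 7.44 CPM in unlasered libraries and at 2.11, 4.01, 3.51 and 3.77 CPM in lasered libraries. It was called lower with a log2 fold change of -0.90 (SE 0.21, adjusted p = 0.041), and its lasered library 1 was the lowest, as for Idi1. The call was kept in 5 of 16 alternative fits and in 0 of the 7 that left out a library, and edgeR did not make it (adjusted p = 0.0544). Gm35570, 97.7% identical, was not called (-0.44, SE 0.19, adjusted p = 0.21). Summed with these 2 copies, Idi1 was at 26.8, 24.0 and 28.0 CPM in unlasered libraries and at 9.86, 15.5, 14.7 and 15.0 CPM in lasered libraries, a ratio of means of 0.52, and Idi1 itself held 68.8% of the reads.

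Fdps, which makes farnesyl diphosphate, the branch point to sterols and prenylated proteins, was listed at only 1.27, 0.701 and 1.47 CPM in unlasered libraries and at 0.974, 0.757, 0.806 and 0.485 CPM in lasered libraries. Its copy Gm3571, 98.9% identical over 1062 bases, was at 10.7, 9.46 and 10.4 CPM in unlasered libraries and at 5.01, 5.92, 4.18 and 6.25 CPM in lasered libraries and was called lower (-0.83, SE 0.19, adjusted p = 0.0343), a call kept in 8 of 16 alternative fits and in 1 of the 7 that left out a library. A further copy, Gm5873, 96.7% identical, did not overlap between the groups and just missed the threshold (-0.73, SE 0.19, adjusted p = 0.0552). Fdps summed with its 4 pseudogene copies was at 19.6, 15.7 and 18.6 CPM in unlasered libraries and at 9.09, 10.7, 7.95 and 10.3 CPM in lasered libraries, a ratio of means of 0.53, and Fdps itself held 7.04% of these reads. Gm43738, a gene of the same strand that shares 1124 exonic bases with Fdps, was left out of this sum. It ranged from 19.5 to 24.0 CPM without and from 16.8 to 21.9 CPM with laser and was not called (-0.13, SE 0.16, adjusted p = 0.681). Its reads include some listed jointly with another gene, so the ratio and the share above depend on leaving it out. The level and change of Fdps are therefore uncertain.

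**Figure D5:**
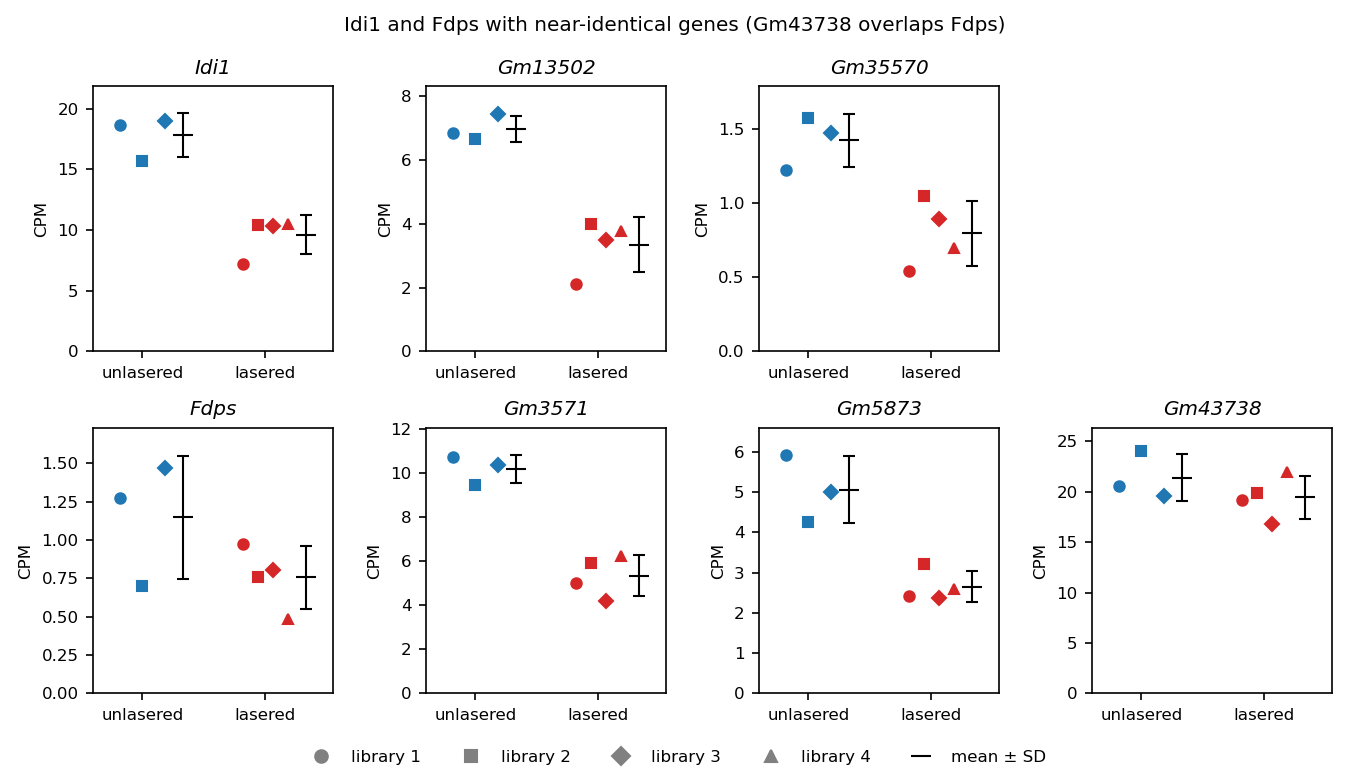
CPM in each library (vertical axes, from 0) of Idi1 with its copies Gm13502 and Gm35570 (upper row) and of Fdps with its copies Gm3571 and Gm5873 and the overlapping gene Gm43738 (lower row); bars are mean ± SD. Gm13502, Gm35570, Gm3571 and Gm5873 are lower in every lasered library than in every unlasered library, whereas Fdps and Gm43738 overlap between the groups.

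Exons of 12 of the 31 genes overlap those of another gene, on the opposite strand for 9 genes, and no source used here says whether the strand was used in counting. Of the called genes this touches Idi1 alone, whose opposite-strand neighbour had means of 0.0555 CPM without and 0.0501 CPM with laser. Fdft1 shares 774 exonic bases with Ctsb, a lysosomal protease gene on the opposite strand at 4504 and 4960 CPM, so its 19.2 to 38.7 CPM are uncertain. Acaca has a copy, Gm5182, 99.2% identical over 6118 bases, at 9.94, 10.4 and 64.4 CPM in unlasered libraries and at 29.2, 14.7, 35.0 and 34.1 CPM in lasered libraries. As for Acaca itself, unlasered library 3 lay above all others and unlasered libraries 1 and 2 below them, and the copy was not called (0.47, SE 0.59, adjusted p = 0.699).

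Other genes of the same pathways were described from lists outside the 31 genes. Of 10 further sterol synthesis genes 9 were tested and 0 were called by limma, with 1 lower and 1 higher at an unadjusted p under 0.05. On the recovered reads edgeR called 0 of these genes, and DESeq2 called Pgrmc1 lower (adjusted p = 0.0467) and Nus1 higher (adjusted p = 0.00656), both named after their values were seen. Of 15 genes of SREBP processing and degradation 14 were tested and 0 were called by limma, edgeR or DESeq2, with 1 lower by limma at an unadjusted p under 0.05.

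Of 23 other fatty acid genes 20 were tested and 2 were called lower. Acacb, the carboxylase of the mitochondrial surface, was at 115, 11.8 and 36.6 CPM in unlasered libraries and at 2.74, 6.53, 2.35 and 5.71 CPM in lasered libraries (-2.93, SE 0.64, adjusted p = 0.0313). The call was kept in 9 of 16 alternative fits and in 2 of the 7 that left out a library, with log2 fold changes from -3.72 to -2.13. Me1, the malic enzyme that supplies NADPH, was at 6.90, 35.5 and 16.6 CPM in unlasered libraries and at 2.86, 0.512, 1.33 and 0.242 CPM in lasered libraries (-3.08, SE 0.53, adjusted p = 0.0152). Me1 ranked the 7 libraries in the same order as the sum of the rod markers, from unlasered library 2 down to lasered library 4. Without unlasered library 2 its log2 fold change was -2.54 (adjusted p = 0.0294). Unlasered libraries 1 and 3, with 2251 and 5780 CPM of rod markers, still lay above the lasered libraries, with 321 to 1020 CPM. The part of rod RNA in the change of Me1 was not tested. The call on Me1 was kept in 6 of the 7 fits that left out a library and was lost without lasered library 2.

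Of 18 genes of sterol uptake, storage and export, all tested, 0 were called lower and 3 higher (16.7%). Over all genes tested, 3.07% were called lower and 3.86% higher. The genes called higher were Ch25h, which makes an oxysterol that restrains SREBP processing (1.13, SE 0.26, adjusted p = 0.0364), the cholesterol exporter gene Abcg1 (0.66, SE 0.16, adjusted p = 0.047) and Nceh1, a cholesteryl ester hydrolase (0.64, SE 0.16, adjusted p = 0.0467). Ch25h rose from 78.3, 41.7 and 45.8 CPM in unlasered libraries to 90.5, 129, 161 and 101 CPM in lasered libraries. Each of these 3 calls was kept in 1 of 7 fits that left out a library. The exporter gene Abca1 was at 302, 306 and 721 CPM in unlasered libraries and at 736, 487, 622 and 493 CPM in lasered libraries (0.51, SE 0.30, adjusted p = 0.361), and it was called higher without unlasered library 3 (adjusted p = 0.0278). Nr1h3, which encodes a liver X receptor, ranged from 2.51 to 6.17 CPM without and from 2.26 to 8.46 CPM with laser and was not called (0.31, SE 0.41, adjusted p = 0.711).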

How the data were processed

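RNA was measured in 7 libraries, grouped by GEO's labels into unlasered (n = 3) and lasered (n = 4). Libraries were pools of mice, so p-values measure the spread between pools. The authors amplified cDNA (SMARTer Ultra Low, Nextera XT), removed adapters (cutadapt) and duplicate reads (FastUniq), which can compress abundant genes, mapped with bowtie2 and counted genes of annotation version 90 with HTSeq. The deposited columns are headed TPM but hold CPM, since every value is a whole multiple of 1 step per library (100.0% of values, tolerance 0.1 read). Coordinates are from GENCODE M21 (GRCm38).

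Groups were compared with limma 3.58.1 (R 4.3.3, statmod 1.5.0; trend, robust) on log2(CPM + 1), without covariates, over 17496 genes at 1 CPM or more in at least 3 libraries. Fold changes on this scale understate those of low genes. Alternatives were a pseudocount of 0.1, no filter or a mean of 10 reads, blocking on replicate number, leaving out each library, median-of-ratios and TMM scaling, thinning, and edgeR 4.0.16 (quasi-likelihood) and DESeq2 1.42.0 on recovered reads. Copies are transcripts at least 95% identical over 300 bases.

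The genes and lists were chosen with earlier results of these data known. Called genes, genes without overlap, the regulators, Fasn, Acaca, Scd1 and Scd2 are given in every library, and from the other lists the called genes, Abca1 and Nr1h3 are named. Some genes of the other lists are not reported here. Copies and overlapping genes were named after their values were seen.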

Additional observations from a re-analysis of the deposited data

Results flagged for a closer look

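Among the 4 lasered libraries, Idi1 in library 1, at 7.21 CPM, lay apart from the others (10.3 to 10.5 CPM), with a gap to the nearest library of 0.938 of the range, above Dixon's 95% critical value for 4 samples. It was the 1 level of 31 so marked, and chance marks about 1 in 20 groups.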

How the results depend on the processing

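Of 17496 genes, 1213 were called, and 5 of the 31 synthesis genes. With no filter on low values 385 of 38566 genes and 1 synthesis gene (Msmo1) were called, and with a mean of at least 10 reads 3 synthesis genes. DESeq2 called 2318 genes and 6 synthesis genes, and edgeR 1283 and 5. Without single libraries the counts ran from 262 to 1406 genes and from 1 to 4 synthesis genes. Unlasered and lasered libraries share the numbers 1 to 3, but deviations of same-numbered libraries correlated at -0.183, -0.126 and -0.0234. These values gave no sign that the numbers pair the libraries, but so few libraries cannot exclude it. With the number as a replicate block, in which lasered library 4 stands alone, 3 genes and 0 synthesis genes were called, with 8 synthesis genes at an unadjusted p under 0.05. The cause of these differences was not tested. Median-of-ratios or TMM scaling left the same 5 genes called and moved the median of all genes by less than 0.1.

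The sign of the log2 fold change turned under some alternative for 10 genes, none of them called in any fit. Leaving out single libraries gave -0.116 to 0.571 for Scap, -0.062 to 0.276 for Mvd, -0.586 to 0.082 for Lss, -0.196 to 0.222 for Tm7sf2, -0.276 to 0.053 for Nsdhl, -0.046 to 0.190 for Dhcr7, -0.412 to 0.296 for Stard4, -0.262 to 1.181 for Fasn, -0.468 to 0.054 for Elovl6 and -0.330 to 0.294 for Scd2. With the replicate block Tm7sf2 was at -0.082 and Stard4 at 0.296. After thinning to the smallest library Mvd was at -0.049, Tm7sf2 at -0.064 and Stard4 at 0.028, and Stard4 was at 0.117 by edgeR and 0.115 by DESeq2.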
